A study of Mus musculus with 50 samples.

Results

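The 10 serotonin receptor genes described here are *Htr1a*, *Htr1b*, *Htr1d*, *Htr1f*, *Htr2a*, *Htr2c*, *Htr3a*, *Htr4*, *Htr6* and *Htr7*. They were chosen by symbol from the 24552 genes listed in both tables of counts, and all 10 passed the filter on low counts in each comparison. A further 4 serotonin receptor genes in the tables, *Htr2b*, *Htr3b*, *Htr5a* and *Htr5b*, are given beside them.

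Serotonin reaches the nucleus accumbens (NAc) through axons from the dorsal raphe and acts there on receptors that differ in how they signal. The receptors encoded by *Htr1a*, *Htr1b*, *Htr1d* and *Htr1f* couple to Gi/o proteins and lower cyclic AMP, those of *Htr2a* and *Htr2c* couple to Gq and phospholipase C, and those of *Htr4*, *Htr6* and *Htr7* couple to Gs and raise cyclic AMP. The product of *Htr3a* is no G-protein coupled receptor but a subunit of a cation channel. Most neurons of the NAc are medium spiny neurons (MSNs), which fall into a type with dopamine D1 receptors and a type with D2 receptors.

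RNA was sequenced from C57BL/6 mice with RiboTag (RT), in which cells with Cre recombinase carry an HA tag on their ribosomes. In the genotypes RT; D1-Cre and, for the other MSN type, RT; D2-Cre, Cre is driven by a bacterial artificial chromosome transgene of the dopamine receptor gene, and an antibody to HA recovers ribosomes with their mRNA (IP), while the input is supernatant of the same homogenate that received no antibody. Mice aged 8 to 12 weeks were undefeated controls (Con) or were defeated by a CD1 aggressor for up to 10 days and then sorted by a social interaction test into resilient (Res) and susceptible (Sus). The D1-IPs numbered 4 for Con, 4 for Res and 5 for Sus, the D2-IPs 5 per group, and the inputs 3 per group and line. Another 4 D1-IP libraries came from undefeated male mice of the genotype RT; Sirt1-floxed; D1-Cre, labelled Sirt1-KO, whose age is not labelled, and were set against the 4 D1 Con libraries. Each library pooled 2 mice, so p-values measure the spread between pools. The study's methods state that libraries were assigned to sequencing sets at random, but the paper does not describe the Sirt1-KO libraries. Whether these were sequenced together with D1 Con is not stated, so a batch difference could not be told apart from the genotype. No label gives the set or the defeat cohort of a library, so neither was entered in the fits.

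Reads assigned to genes numbered 21591075 to 31009626 per IP, 18384265 to 28179940 per input and 22174187 to 31785984 per Sirt1-KO library. Levels are CPM, a gene's counts relative to the depth of its library with TMM scaling, and CPM per kb of exons where genes are compared. D1-MSN markers (*Drd1*, *Tac1*, *Pdyn*, *Chrm4*) were higher in D1-IPs for 4 of 4 and D2-MSN markers (*Drd2*, *Adora2a*, *Penk*, *Gpr6*) higher in D2-IPs for 4 of 4, in the direction of the labels. The D2-MSN markers were also higher in D1-IPs than in D1 inputs for 4 of 4, with a median log2 fold change of 0.89. Markers of astrocytes, oligodendrocytes, microglia and endothelial cells were lower in IPs than in inputs for all members of each list in both lines.

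*Htr2c* was by far the most abundant of the 10 mRNAs. Per kb of exons it reached 28.2 ± 2.08 CPM in D1-IPs (SD, n = 13) and 35.1 ± 3.96 in D2-IPs (n = 15), against 15.9 ± 0.942 in D1 inputs and 16.8 ± 1.195 in D2 inputs (n = 9 each). The next gene, *Htr1d*, stood 5.36-fold lower in D1-IPs and 5.05-fold lower in D2-IPs, and the lowest *Htr2c* library lay above the highest *Htr1d* library in both. Of all reads on the 10 genes, *Htr2c* held 70.4% in D1-IPs (66.1 to 72.9%), 74.3% in D2-IPs (69.9 to 76.8%), 61.6% in D1 inputs and 63.1% in D2 inputs, a share that its long exons enlarge.

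Below *Htr2c*, the order was close. In D1-IPs, *Htr1d* at 5.26 ± 0.561 CPM per kb was followed by *Htr4* (4.05 ± 0.546), *Htr1b* (3.98 ± 0.540), *Htr2a* (3.37 ± 0.357), *Htr1a* (3.30 ± 0.734), *Htr6* (3.25 ± 0.384) and *Htr7* (2.46 ± 0.371), and the ranges of each neighbouring pair overlapped. *Htr1f* (1.24 ± 0.206) lay below every *Htr7* library, and *Htr3a* was lowest at 0.783 ± 0.227. In D2-IPs, *Htr1d* (6.96 ± 0.618) stood clear of *Htr1b* (4.30 ± 0.523), and *Htr1a* (2.40 ± 0.277), *Htr1f* (0.875 ± 0.291) and *Htr3a* (0.343 ± 0.114) closed the order with no overlap between them. *Htr1a* was thus sixth of the 10 in D1-IPs, eighth in D2-IPs and, at 3.70 ± 0.392 CPM per kb, second in D2 inputs, where its range overlapped that of *Htr2a* (3.63 ± 0.537).

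**Figure D1:**
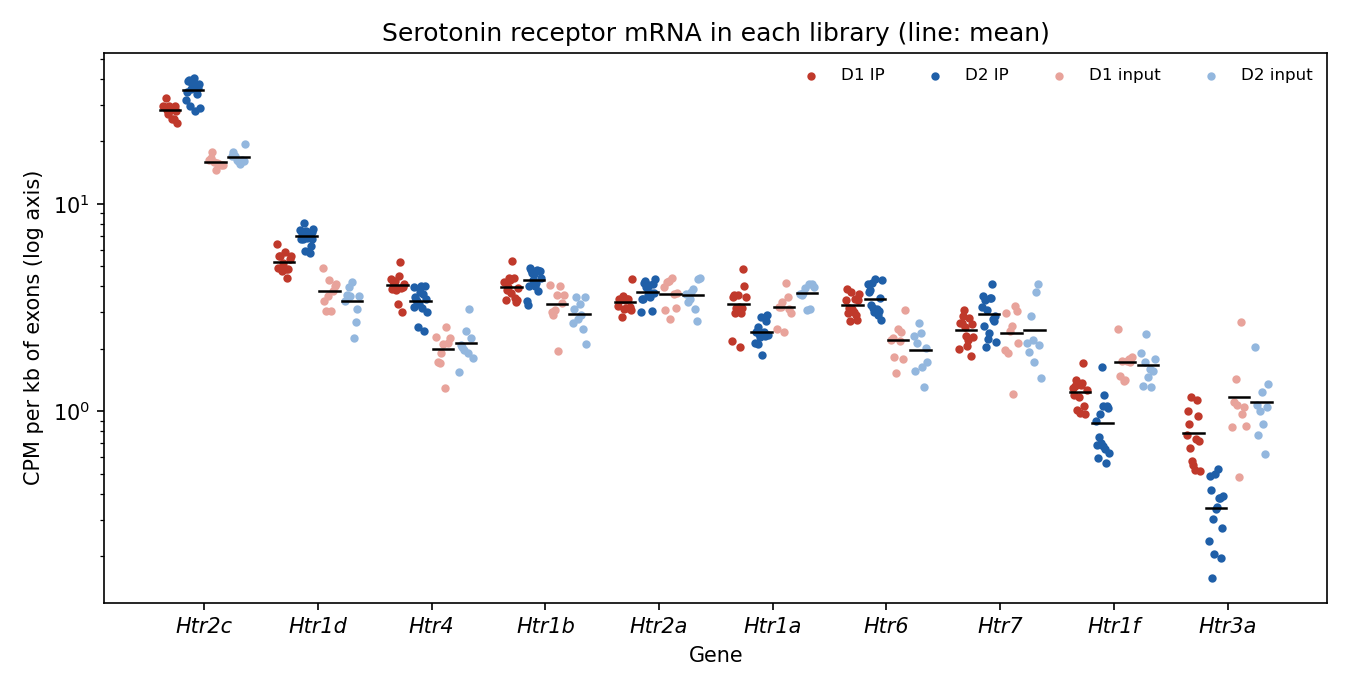
Level of each of the 10 receptor mRNAs in every IP and input library, in CPM per kb of exons on a log axis, with 1 point per library and a line at the mean. *Htr2c* stands alone at the top, with IPs above inputs, and *Htr3a* and *Htr1f* lie lowest, with the mean of D2-IPs below that of inputs.

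Of the 4 other receptor genes, *Htr5a*, whose product couples to Gi/o, had 16.9 ± 1.97 CPM in D1-IPs and 10.6 ± 1.21 in D2-IPs. Per kb of exons its mean was 3.14 ± 0.366 CPM in D1-IPs, between those of *Htr6* and *Htr7*. In D2-IPs it was 1.97 ± 0.226 CPM per kb, between *Htr1a* and *Htr1f*. *Htr5b* had 0.642 ± 0.241 CPM in D1-IPs and 0.211 ± 0.117 in D2-IPs. *Htr2b* and *Htr3b*, the second channel subunit, had at most 2 counts in any library and were not tested. Among the 10, counts per library ran from 9 to 124 for *Htr3a* and from 35 to 148 for *Htr1f*, against 2934 to 10973 for *Htr2c*, so the first 2 carry the widest errors.

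The promoters of *Htr1a*, *Htr1d* and *Htr2c* are shown because these receptors differed between D1- and D2-IPs in opposite directions. RefSeq entries on GRCm38.p6 (the assembly also called mm10) were found for 8 of the 10 genes, each with 250 bases before and 50 after a start. *Htr1a* is 1 exon on chromosome 13 (105443639 to 105448122, plus strand), *Htr1d* has 4 blocks of exons on chromosome 4 (136423524 to 136444398, plus strand), and *Htr2c* has 8 on chromosome X (146962513 to 147197277, plus strand). The windows are chr13:105443443-105443742 for *Htr1a*, chr4:136423274-136423573 for *Htr1d* and chrX:146962263-146962562 for *Htr2c*, all on the plus strand. Capitals mark a CCAAT box, searched as these letters, or a GC box, searched as GGGCGG, each on both strands (the *Htr2c* match lies on the minus strand). TATAAA, the TATA box, and TGACGTCA, the cyclic AMP element, were searched in the same way and had no match in the 10 windows of these 8 genes.
Htr1a: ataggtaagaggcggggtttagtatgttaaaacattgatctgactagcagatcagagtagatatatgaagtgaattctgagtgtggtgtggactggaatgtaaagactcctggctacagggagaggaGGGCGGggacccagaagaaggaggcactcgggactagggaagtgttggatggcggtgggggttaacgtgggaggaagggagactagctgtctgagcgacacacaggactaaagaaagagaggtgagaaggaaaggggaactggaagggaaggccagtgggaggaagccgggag
Htr1d: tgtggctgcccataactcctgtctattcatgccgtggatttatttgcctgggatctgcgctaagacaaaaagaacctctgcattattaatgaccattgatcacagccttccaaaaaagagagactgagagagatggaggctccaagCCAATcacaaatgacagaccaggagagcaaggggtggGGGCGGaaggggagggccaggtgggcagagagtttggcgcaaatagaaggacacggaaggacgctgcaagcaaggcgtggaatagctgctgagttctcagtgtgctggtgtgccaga
Htr2c: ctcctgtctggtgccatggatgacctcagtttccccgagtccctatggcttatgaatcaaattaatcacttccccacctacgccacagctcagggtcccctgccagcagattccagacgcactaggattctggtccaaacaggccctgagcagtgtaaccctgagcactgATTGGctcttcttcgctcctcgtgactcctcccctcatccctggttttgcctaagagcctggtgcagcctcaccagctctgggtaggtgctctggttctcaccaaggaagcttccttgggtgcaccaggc
The *Htr1a* window holds 1 GC box and no CCAAT box, the *Htr1d* window 1 of each (a second *Htr1d* entry, chr4:136424362-136424661, holds 4 GC boxes and no CCAAT box, and the one shown begins 250 bases before the annotated start of the gene), and the *Htr2c* window 1 CCAAT box and no GC box. CCAAT boxes stand in 37.4% and GC boxes in 35.7% of all 32851 promoters of this length, TATAAA in 13.6% and TGACGTCA in 1.79%. The matches describe these letters only.

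The main contrast of the design asks which transcripts differ between D1- and D2-MSNs. Over the mean of the 3 stress groups, 8 of the 10 receptors differed between D1- and D2-IPs, 4 higher in D1-IPs (*Htr3a*, *Htr1f*, *Htr1a*, *Htr4*) and 4 higher in D2-IPs (*Htr1d*, *Htr2c*, *Htr7*, *Htr2a*), where called means an adjusted p below 0.05 (edgeR, quasi-likelihood). Of all 14224 genes tested, 40.8% were called, 19.6% higher and 21.3% lower in D1-IPs, and the median log2 difference was -0.12 over the receptors and -0.02 over all genes. The differences were small: 1 of the 10, *Htr3a*, exceeded 1.5-fold, as 7.66% of all genes did. In bulk samples, fewer cells with a transcript and less transcript per cell cannot be told apart.

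Among the Gi/o-coupled receptors, the direction differed by gene. *Htr1d*, a receptor also found on axon terminals, ran from 14.0 to 20.5 CPM in D1-IPs (median 16.6) and from 18.6 to 25.8 in D2-IPs (median 22.5), and 11 of 13 D1-IPs lay below every D2-IP. It was 1.33-fold higher in D2-IPs (log2 difference, D1 minus D2, -0.41 ± 0.05 SE, adjusted p = 2.95e-07 by edgeR) and passed the threshold within Con (-0.37, adjusted p = 0.00700), Res (-0.43, adjusted p = 0.00166) and Sus (-0.44, adjusted p = 0.000572) in the same edgeR fit. By edgeR, *Htr1d* was the 1 receptor called in all 3 stress groups, in which 14%, 17.5% and 17.6% of all genes were called. The receptors called numbered 3 in Con, 2 in Res and 5 in Sus. At an unadjusted p under 0.05 they numbered 5 in Con, 5 in Res and 7 in Sus, beside 27%, 30.3% and 29.8% of all genes, and with a fold over 1.5 there were 2 in Con, 0 in Res and 2 in Sus, beside 4.98%, 5.52% and 5.55%. No D1-minus-D2 difference of the 10 differed between stress groups (edgeR, adjusted p = 1.00 in each of 3 tests).

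*Htr1a*, the target of buspirone, had the opposite direction, with 9.13 to 21.8 CPM in D1-IPs (median 14.2) and 8.33 to 13.1 in D2-IPs (median 10.7). Of 13 D1-IPs, 11 lay above every D2-IP, the exceptions being Con replicate 1 (9.74 CPM) and Res replicate 4 (9.13 CPM). The difference was 1.34-fold (log2 0.42 ± 0.09 SE, adjusted p = 0.000297 by edgeR). By stress group it was called in Sus (0.53, adjusted p = 0.0101) and not in Con (0.39) or Res (0.34), without a tested difference between them as given above. In Sus the call was lost without D1 Sus replicate 3 (0.41, adjusted p = 0.0584 by edgeR), and it was gained in Con without D1 Con replicate 1 (0.53, adjusted p = 0.0164) and in Res without D1 Res replicate 4 (0.49, adjusted p = 0.0233).

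*Htr1f*, a receptor targeted by migraine drugs, was 1.41-fold higher in D1-IPs (3.20 ± 0.531 against 2.26 ± 0.751 CPM, log2 0.50 ± 0.13 SE, adjusted p = 0.00263 by edgeR). The ranges overlapped widely, from 2.51 to 4.39 CPM in D1-IPs and from 1.46 to 4.22 in D2-IPs, and the highest D2-IP was Res replicate 2. The difference was 0.73 in Con and 0.67 in Sus (adjusted p = 0.0297 and 0.0298) and 0.09 in Res (95% interval -0.37 to 0.56, adjusted p = 0.826 by edgeR), and the Res difference minus the Con difference was -0.64 (-1.30 to 0.02). The Con and Sus calls lay near the threshold. Without any of 6 libraries (D1 Con replicates 2, 3 and 4, D2 Con replicates 2, 3 and 4) the Con difference was 0.65 to 0.78 with adjusted p from 0.0525 to 0.0780, and without any of 5 (D1 Sus replicates 1 and 2, D2 Sus replicates 1, 2 and 5) the Sus difference was 0.55 to 0.65 with adjusted p from 0.0574 to 0.0974. Fitted on the compared libraries alone, the Sus difference was 0.69 (adjusted p = 0.0561 by edgeR). *Htr1b*, an autoreceptor and heteroreceptor of terminals, was not called (log2 -0.12, 95% interval -0.25 to 0.01, adjusted p = 0.135 by edgeR), and its gene overlaps *D430036J16Rik* on the other strand.

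Both Gq-coupled receptors were higher in D2-IPs. *Htr2c* had 229 to 301 CPM in D1-IPs (median 263) and 261 to 376 in D2-IPs (median 338), and 5 of 13 D1-IPs lay below every D2-IP. It was 1.25-fold higher in D2-IPs (log2, D1 minus D2, -0.33 ± 0.05 SE, adjusted p = 6.38e-06 by edgeR), with -0.23 in Con (adjusted p = 0.0836), -0.35 in Res (adjusted p = 0.00608) and -0.40 in Sus (adjusted p = 0.00112). The Con difference was called without D2 Con replicate 5 (-0.29, adjusted p = 0.0376 by edgeR), the lowest D2 Con library for *Htr2c* at 274.7 CPM. *Htr2a*, through which hallucinogens such as LSD act, was 1.13-fold higher in D2-IPs (log2 -0.18 ± 0.06 SE, adjusted p = 0.0159), with ranges that nearly coincide (15.9 to 24.2 and 17.0 to 24.2 CPM).

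The Gs-coupled receptors were split. *Htr4* ran from 14.7 to 25.8 CPM in D1-IPs and from 12.0 to 19.8 in D2-IPs, with 7 of 13 D1-IPs above every D2-IP, and was 1.18-fold higher in D1-IPs (log2 0.24 ± 0.08 SE, adjusted p = 0.0134 by edgeR). *Htr7* was 1.21-fold higher in D2-IPs (log2 -0.27 ± 0.10 SE, adjusted p = 0.0331 by edgeR), a call lost when any of 9 libraries was left out (D1 Con replicate 1, D1 Res 3 and 4, D1 Sus 3, D2 Con 2 and 4, D2 Res 4 and 5, D2 Sus 1), with log2 from -0.26 to -0.22 and adjusted p from 0.0551 to 0.0702. *Htr6* was not called (-0.11, 95% interval -0.27 to 0.04, adjusted p = 0.238 by edgeR).

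*Htr3a*, the channel subunit, had the largest log2 difference of the 10. It ran from 1.08 to 2.44 CPM in D1-IPs (median 1.53) and from 0.329 to 1.103 in D2-IPs (median 0.720), and 11 of 13 D1-IPs lay above every D2-IP. It was 2.27-fold higher in D1-IPs (log2 1.18 ± 0.18 SE, adjusted p = 4.97e-06 by edgeR), with 1.37 in Con (adjusted p = 0.00359), 0.87 in Res (adjusted p = 0.0544) and 1.30 in Sus (adjusted p = 0.00247). The Res difference was called without D1 Res replicate 4 (0.99, adjusted p = 0.0411) or D2 Res replicate 5 (1.01, adjusted p = 0.0369 by edgeR), and by DESeq2 with all libraries (0.88, adjusted p = 0.0400). *Htr3a* lies on chromosome 9 (48899213 to 48911099, minus strand), 429.5 kb from *Drd2*.

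**Figure D2:**
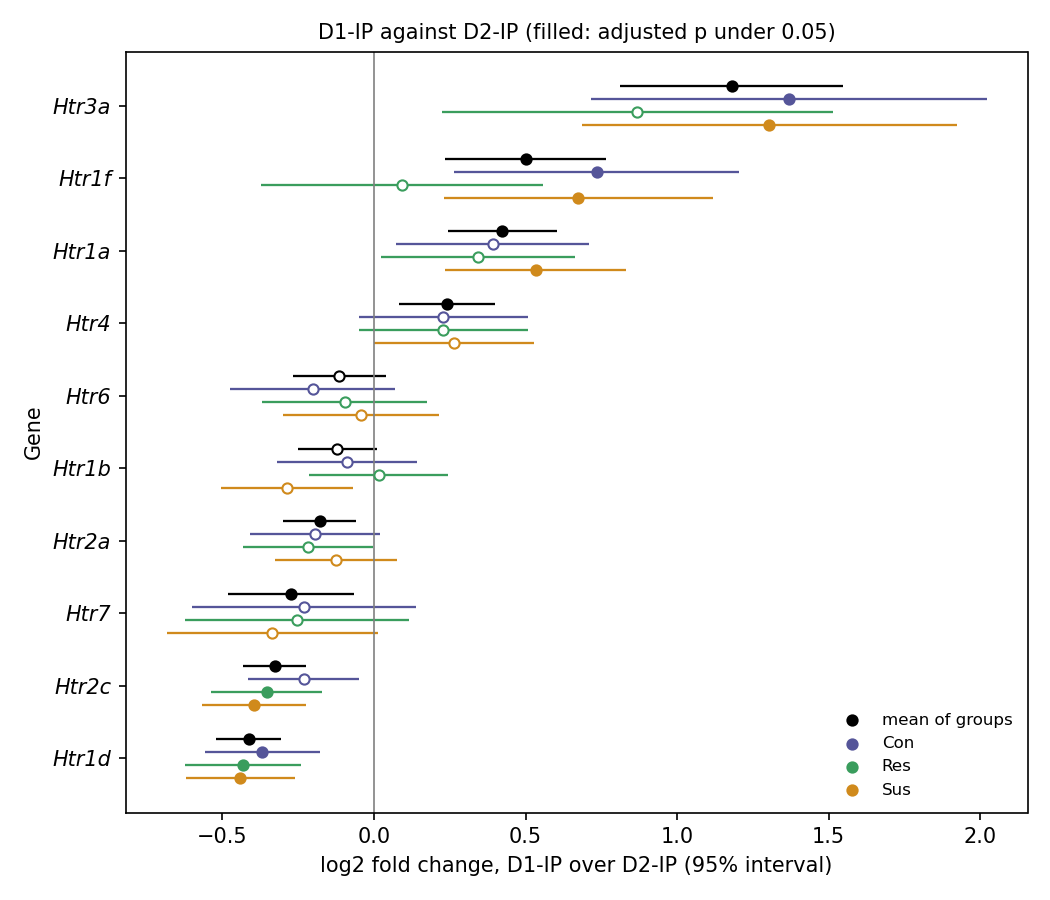
Log2 fold change of each receptor between D1- and D2-IPs with its 95% interval, over the mean of the stress groups (black) and within Con, Res and Sus. Filled points passed an adjusted p of 0.05; *Htr3a*, *Htr1f*, *Htr1a* and *Htr4* lie right of 0 and *Htr1d*, *Htr2c*, *Htr7* and *Htr2a* left of it.

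Markers of other cells moved with the same contrast. The summed level of 6 cortical excitatory markers was 407 to 1438 CPM in D1-IPs (median 769) and 46.02 to 322 in D2-IPs (median 206), with no overlap, and 5 of the 6 were higher in D1-IPs and none lower. *Slc17a7*, the vesicular glutamate transporter of cortical neurons, had a median of 615 CPM in D1-IPs and 157 in D2-IPs. Of 4 tested parvalbumin interneuron markers 4 were higher in D1-IPs, and of 4 Vip and Cck interneuron markers 3, with *Vip* itself at a median of 1.61 CPM in D1-IPs and 0.498 in D2-IPs. Of 6 cholinergic markers, 4 were higher in D2-IPs and 1 in D1-IPs. Astrocyte markers were higher in D1-IPs for 6 of 6 and oligodendrocyte markers for 4 of 6, and microglial markers were higher in D2-IPs for 4 of 5 tested. The choroid plexus list summed to 35.3 to 55.1 CPM in D1-IPs (median 47.3), 52.8 to 71.5 in D2-IPs (median 59.4) and medians of 29.3 and 26.3 in D1 and D2 inputs, the order that *Htr2c* also had among IPs. Its sum came from *Clic6* and *Kl*, and its defining markers *Ttr*, *Folr1* and *Kcne2* had medians of at most 0.348 CPM in IPs and inputs. D1 Sus replicate 3, highest for *Htr1a* at 21.8 CPM, was also the highest D1-IP for the cortical markers, and D1 Con replicate 1 and D1 Res replicate 4, lowest for *Htr1a*, were the 2 lowest. The part of these cells in the differences of the receptors was not tested. Among the receptors outside the 10, *Htr5a* and *Htr5b* were also higher in D1-IPs (log2 0.66 ± 0.06 and 1.57 ± 0.26 SE).

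Comparing IP with input asks which receptor mRNAs were enriched on the tagged ribosomes over the whole tissue. In D1-IPs 7 of the 10 differed from D1 inputs, 5 higher and 2 lower, beside 81.9% of 15404 genes tested (39.2% higher, 42.7% lower), and in D2-IPs 8 differed from D2 inputs, 5 higher and 3 lower, beside 82.7% (37.8% higher, 44.9% lower). A fold over 1.5 was passed as well by 2 receptors in the D1 line, *Htr4* and *Htr2c*, beside 43.1% of all genes, and by 7 in the D2 line, all those called but *Htr1b*, beside 43.6%. *Htr2c*, *Htr4*, *Htr6*, *Htr1d* and *Htr1b* were higher in the IPs of both lines, and *Htr1f* and *Htr3a* were lower in both. The median log2 difference of the 10 was 0.17 in the D1 line and 0.40 in the D2 line, against -0.04 and -0.08 over all genes.

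*Htr2c* was 1.78-fold higher in D1-IPs than in D1 inputs and 2.09-fold higher in D2-IPs than in D2 inputs, and in both lines the lowest IP (229 and 261 CPM) lay above the highest input (166 and 181 CPM). *Htr4* was enriched 2.04-fold in D1-IPs, where all 13 IPs (14.7 to 25.8 CPM) exceeded all 9 inputs (6.35 to 12.5), and 1.602-fold in D2-IPs. *Htr6* was enriched 1.48-fold and 1.78-fold, and *Htr1b* 1.22-fold and 1.46-fold. Their adjusted p values in edgeR ran from 0.00435 for *Htr1b* in the D1 line down to 2.08e-21 for *Htr2c* in the D2 line. *Htr2a* was not called in either line (log2 -0.14, 95% interval -0.30 to 0.03, and 0.05, -0.11 to 0.21). In the D1 line it was called lower with a stricter filter, a mean count of 50 or more (-0.22, adjusted p = 0.0116) and without D1 Res input replicate 2 (-0.19, adjusted p = 0.0291 by edgeR), and the D1 call of *Htr1b* was lost over the control libraries alone (0.22, adjusted p = 0.198 by edgeR).

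*Htr1d* and *Htr1a* separated the lines. *Htr1d* was enriched 1.39-fold in D1-IPs and 2.05-fold in D2-IPs, and in the D2 line the IPs (18.6 to 25.8 CPM) did not overlap the inputs (7.25 to 13.5 CPM). *Htr1a* was near its input level in D1-IPs (log2 0.04, 95% interval -0.16 to 0.24) and 1.54-fold below it in D2-IPs (adjusted p = 2.30e-07 by edgeR), where every IP (8.33 to 13.1 CPM) lay below every input (13.8 to 18.5 CPM). The IP-to-input difference itself differed between lines by 0.66 ± 0.14 (log2, SE) for *Htr1a* (adjusted p = 0.000414), -0.56 ± 0.12 for *Htr1d* (adjusted p = 0.000278), -0.23 ± 0.07 for *Htr2c* (adjusted p = 0.0170) and 1.13 ± 0.32 for *Htr3a* (adjusted p = 0.00631 by edgeR), 4 of the 10 receptors beside 25.5% of all genes. At an unadjusted p under 0.05 there were 7, with *Htr4*, *Htr1f* and *Htr1b* besides, and 36.3% of all genes.

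*Htr3a* and *Htr1f* were lower in IPs than in inputs. So were somatostatin and NPY interneuron markers, which summed to medians of 129 CPM in D1-IPs and 138 in D2-IPs against 266 and 270.3 in the inputs, without overlap, and parvalbumin markers in the D2 line (medians 103 and 174 CPM), and their part was not tested. *Htr3a* was 3.24-fold lower in D2-IPs than in D2 inputs (log2 -1.70 ± 0.22 SE, adjusted p = 6.70e-09), with the highest IP (1.103 CPM) under the lowest input (1.30 CPM). In the D1 line it was 1.48-fold lower (log2 -0.56 ± 0.22, adjusted p = 0.0173 by edgeR), a call lost without D1 Res input replicate 3 (-0.26, adjusted p = 0.232), which had 5.59 CPM, or D1 Con input replicate 3 (-0.48, adjusted p = 0.0520). With the pool of mice as a block, over the pools that gave both libraries, it was -0.34 (adjusted p = 0.217 by edgeR). *Htr1f* was 1.40-fold lower in D1-IPs and 1.93-fold lower in D2-IPs (adjusted p = 0.00135 and 3.10e-08). *Htr7* was not called in either line (log2 0.06 and 0.26), but in the D2 line it passed with the pool as a block (0.32, adjusted p = 0.0372) and without D2 Con IP replicate 5 (0.33, adjusted p = 0.0428), D2 Res input replicate 3 (0.38, adjusted p = 0.0209) or D2 Sus input replicate 1 (0.48, adjusted p = 0.00329 by edgeR).

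**Figure D3:**
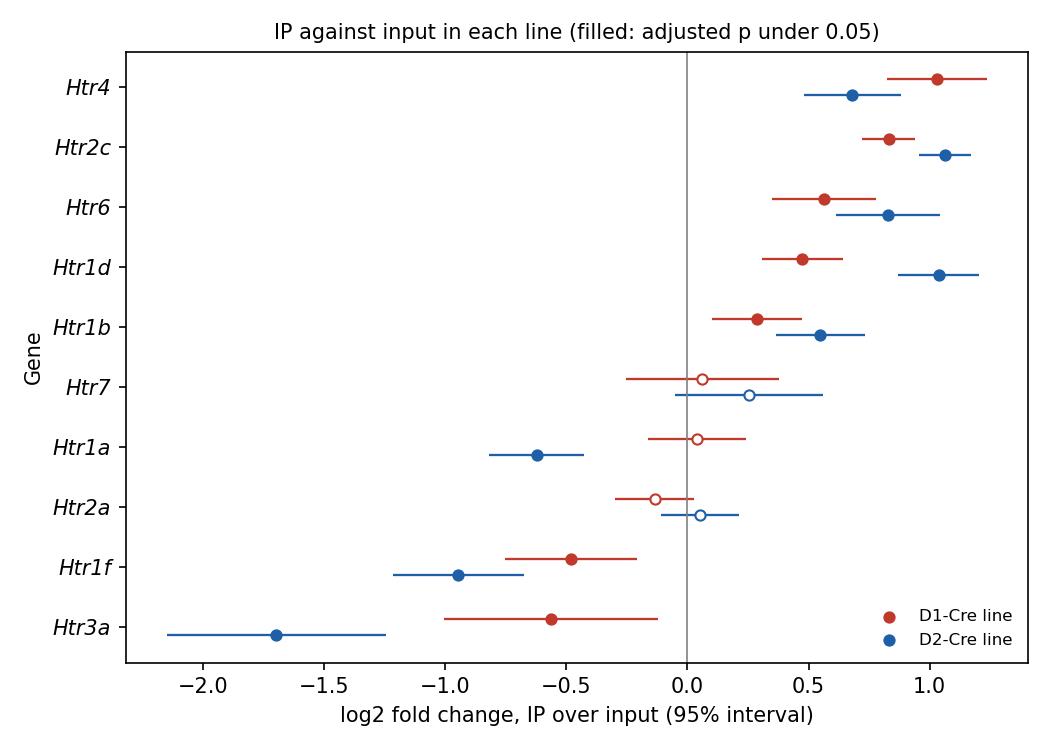
Log2 fold change of each receptor between IP and input in the D1-Cre line (red) and the D2-Cre line (blue), with 95% intervals. Filled points passed an adjusted p of 0.05; *Htr4*, *Htr2c*, *Htr6*, *Htr1d* and *Htr1b* were higher in IPs of both lines, while *Htr1a* was lower only in the D2-Cre line.

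The inputs check whether the lines differed before the IP. None of the 10 was called between D1 and D2 inputs, beside 0.0199% of 15063 genes. At an unadjusted p under 0.05 by edgeR, *Htr1a* was lower in D1 inputs (log2 -0.22, adjusted p = 0.938) and so was *Htr2c* (-0.08, adjusted p = 0.945), 2 of the 10 beside 5.19% of all genes; DESeq2 called none and had 2 at an unadjusted p under 0.05. For *Htr3a*, *Htr1d* and *Htr1f* the input differences were 0.07 (95% interval -0.49 to 0.62), 0.16 (-0.07 to 0.40) and 0.05 (-0.22 to 0.32).

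The stress comparisons ask how resilient and susceptible mice differ from controls in each MSN type. None of the 10 receptors passed the threshold in any of the 6 comparisons within D1- or D2-IPs or in the 3 tests of a D1 response against a D2 response, with edgeR or with DESeq2. Over all genes, edgeR called 0% in each of these but D1 Res against D1 Con, with 0.00703%. At an unadjusted p under 0.05, edgeR found 1 receptor, *Htr1b* in D1 Sus against D1 Res, and DESeq2 found 2 in that comparison, with none by either tool in the other 8. By edgeR, the share of all genes at that unadjusted p was 5.34% in D1 Sus against Con and 2.11% in D1 Res against Con. In D2-IPs it was 3.68% in Sus against Con, 3.02% in Res against Con and 1.66% in Sus against Res. In the tests of the D1 against the D2 response it was 1.82% for Sus against Con, 2.36% for Res against Con and 2.03% for Sus against Res.

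*Htr1b* in D1-IPs had 16.3, 18.2, 18.7 and 19.8 CPM in Con, 17.6, 20.2, 20.6 and 25.1 in Res, and 15.8, 16.2, 16.6, 18.6 and 20.8 in Sus. The groups overlapped, with Res replicate 4 highest. The log2 difference of Sus from Res was -0.25 ± 0.11 SE (95% interval -0.48 to -0.02, adjusted p = 0.999 by edgeR), 1 of 10 receptors beside 4.23% of all genes. In D2-IPs the same difference was 0.05 (-0.16 to 0.27), and the difference between the lines was -0.30 (-0.62 to 0.01, adjusted p = 1.00).

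*Htr1a* in D1-IPs had 9.74, 13.3, 15.997 and 16.2 CPM in Con, 9.13, 14.2, 14.2 and 16.3 in Res, and 13.3, 14.1, 15.9, 18.1 and 21.8 in Sus. Sus held the 2 highest libraries, but the groups overlapped. The log2 difference was 0.27 for Sus against Con (95% interval -0.05 to 0.58) and 0.31 for Sus against Res (-0.01 to 0.62), with adjusted p = 0.846 and 0.999 by edgeR. The cortical markers, summed, were 407 to 1110 CPM in D1 Con, 488 to 899 in D1 Res and 668 to 1438 in D1 Sus, and their part was not tested.

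*Htr2c* in D1-IPs had a mean of 279 ± 16.2 CPM in Con (n = 4), 264 ± 9.72 in Res (n = 4) and 249 ± 19.5 in Sus (SD, n = 5), and in D2-IPs 324 ± 41.0, 335 ± 43.7 and 324 ± 32.9 (n = 5 each). The D1 means fall in that order, but the log2 difference of Sus from Con, -0.16, had a 95% interval of -0.35 to 0.02 (adjusted p = 0.846 by edgeR), and in D2-IPs it was -0.0003 (-0.17 to 0.17). No interval of a stress difference within either IP reached a log2 value of 0.5 in size except those of *Htr1a*, *Htr1f* and *Htr3a*. For *Htr3a* and *Htr1f* the intervals were wide, from -0.88 to 0.41 for *Htr3a* in D1 Res against Con and from -0.03 to 0.88 for *Htr1f* in D2 Res against Con, where libraries ran from 1.53 to 2.51 CPM in Con and from 1.75 to 4.22 in Res.

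**Figure D4:**
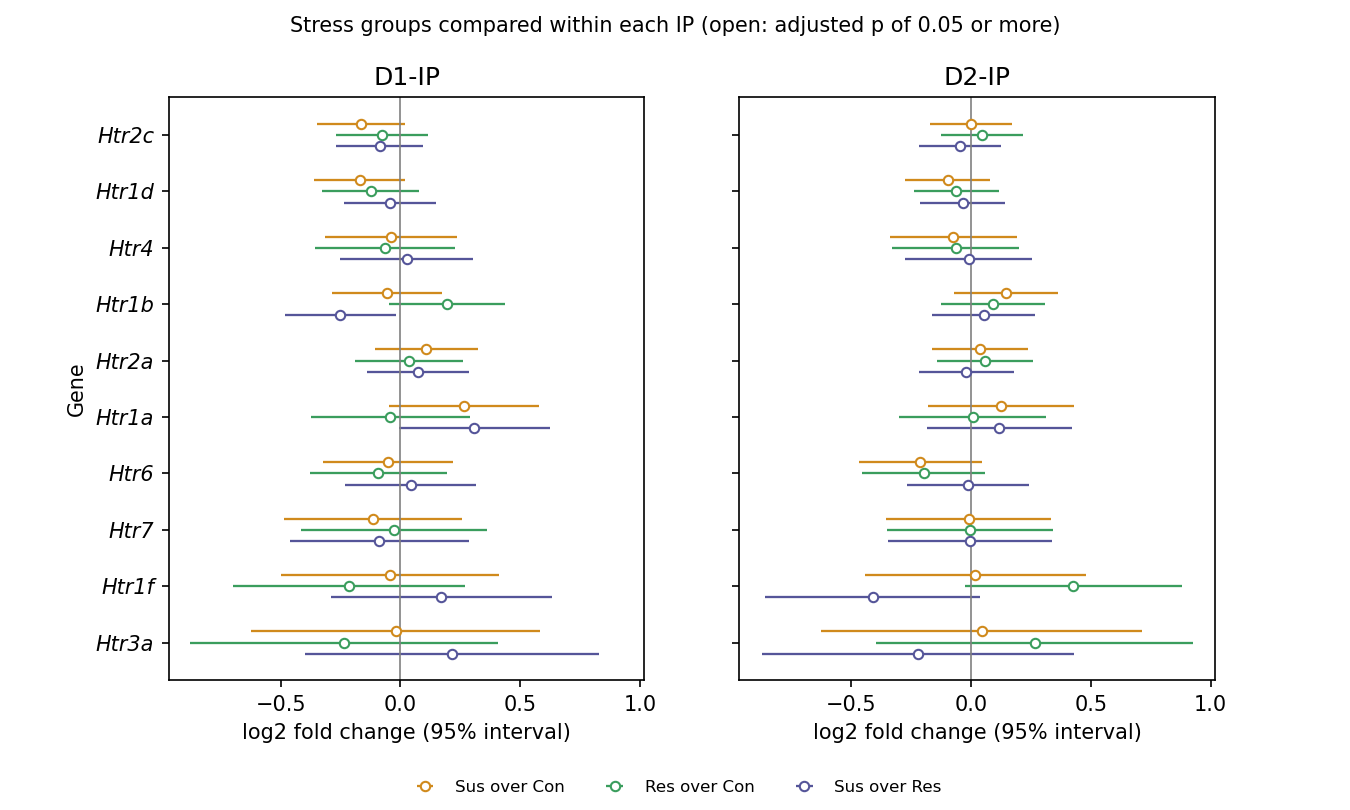
Log2 fold changes between stress groups within D1-IPs (left) and D2-IPs (right) for each receptor, with 95% intervals. All points are open because none passed an adjusted p of 0.05, and the widest intervals belong to *Htr3a* and *Htr1f*.

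In the inputs, none of the 10 was called between stress groups with the line as a covariate, beside 0% of all genes called by edgeR. At an unadjusted p under 0.05, *Htr4* was higher in Sus than in Con inputs (log2 0.31, 95% interval 0.03 to 0.60, adjusted p = 0.979 by edgeR), beside 4.51% of all genes, and *Htr2c* was lower in Res than in Con inputs (-0.12, -0.22 to -0.03, adjusted p = 1.00 by edgeR), beside 3.25%. Between Sus and Res inputs no receptor passed that unadjusted p by edgeR, beside 5.47% of all genes by edgeR. By DESeq2 1 receptor did, and the DESeq2 share is not reported here. *Htr4* had 8.36, 8.48 and 11.2 CPM in D1 Con inputs and 10.5, 11.1 and 12.5 in D1 Sus inputs, which overlap. In the D2 line it had 7.59, 10.0 and 10.3 CPM in Con inputs and 8.83, 11.0 and 15.2 in Sus inputs, which overlap too.

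For the libraries labelled Sirt1-KO the targeted gene was examined first. *Sirt1*, which encodes a deacetylase, had 10.2, 13.2, 15.1 and 16.2 CPM in the Sirt1-KO libraries and 13.1, 14.4, 14.8 and 16.6 in D1 Con, a log2 difference of -0.10 (95% interval -0.39 to 0.19, adjusted p = 0.768 by edgeR). Counts over the whole gene do not show whether a floxed exon was lost, and mRNA from cells without Cre is counted too, so the label was not checked by this gene. Values of this table were scaled on their own, and the same D1 Con libraries therefore have slightly other CPM than above.

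*Htr2c* was the 1 receptor of 10 called between libraries labelled Sirt1-KO and D1 Con, beside 1.66% of 13626 genes. It had 188.7, 207, 211 and 227 CPM in Sirt1-KO and 250.4, 258, 262 and 285 in D1 Con, with no overlap. It was 1.27-fold lower in Sirt1-KO (log2 -0.34 ± 0.06 SE, adjusted p = 0.0293 by edgeR), and so did not pass a fold over 1.5, as 0.749% of all genes did. The call was lost when any of 6 libraries was left out (each D1 Con library, Sirt1-KO replicates 1 and 3), with log2 from -0.36 to -0.30 and adjusted p from 0.0504 to 0.0905.

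A further 4 receptors passed an unadjusted p under 0.05 without being called, beside 17.3% of all genes. *Htr7* had 3.78, 4.25, 5.16 and 6.84 CPM in Sirt1-KO and 6.41, 8.53, 8.61 and 9.26 in D1 Con (log2 -0.71 ± 0.19 SE, adjusted p = 0.0752 by edgeR). *Htr1f* had 1.68 to 2.37 CPM in Sirt1-KO and 2.93 to 3.49 in D1 Con, with no overlap (log2 -0.60 ± 0.17 SE, adjusted p = 0.0908). *Htr1b* and *Htr1d* had log2 differences of -0.51 and -0.32 (adjusted p = 0.169 and 0.269).

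Sirt1-KO replicate 5 stood apart for *Htr1b* and *Htr1d*. It had 17.8 CPM of *Htr1b* where the other 3 had 8.28 to 11.7, and 18.5 CPM of *Htr1d* where they had 12.0 to 12.5, and it was also the lowest for *Sirt1* (10.2 CPM). As a library it differed too, with 22174187 reads on genes against 28905618 to 31785984 in the other 3. Reads assigned to no gene made up 23.8% of it, against 19.2 to 21.6%. The part of this in the receptor values was not tested. Without replicate 5, *Htr1b* (log2 -0.74, adjusted p = 0.00679), *Htr1d* (-0.49, adjusted p = 0.0151) and *Htr7* (-0.73, adjusted p = 0.0493 by edgeR) passed the threshold, and *Htr2c* remained called. The share of all genes called in that fit is not reported here, so these calls are not read as particular to the receptors. *Htr7* was also called without Sirt1-KO replicate 1 (-0.91, adjusted p = 0.0438 by edgeR).

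The direction was shared by most of the 10: 9 log2 differences were below 0 and that of *Htr1a* was above it (0.21, 95% interval -0.16 to 0.58), with a median of -0.33 against 0.00 over all genes. Markers moved as well. The cortical markers summed to 860 to 1613 CPM in Sirt1-KO and 385 to 1051 in D1 Con, the D1-MSN markers to 896 to 1121 and 1192 to 1468, and the D2-MSN markers to 1628 to 2576 and 2254 to 3282. Parvalbumin markers summed to 120.5 to 135 CPM in Sirt1-KO and 149.5 to 158 in D1 Con, with no overlap, and the choroid plexus list to 27.3 to 41.4 and 38.3 to 47.7, with *Ttr* at a median of 0.395 and 0.283 CPM. Of the cortical markers 5 of 6, and of the D1-MSN markers 4 of 4, passed an unadjusted p under 0.05 by edgeR, and *Pdyn* was called (-0.37). Of 5 tested cholinergic markers 2 were called lower in Sirt1-KO, and of 4 somatostatin and NPY markers 2 were called higher and 1 lower. The part of these cells in the receptor differences was not tested.

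**Figure D5:**
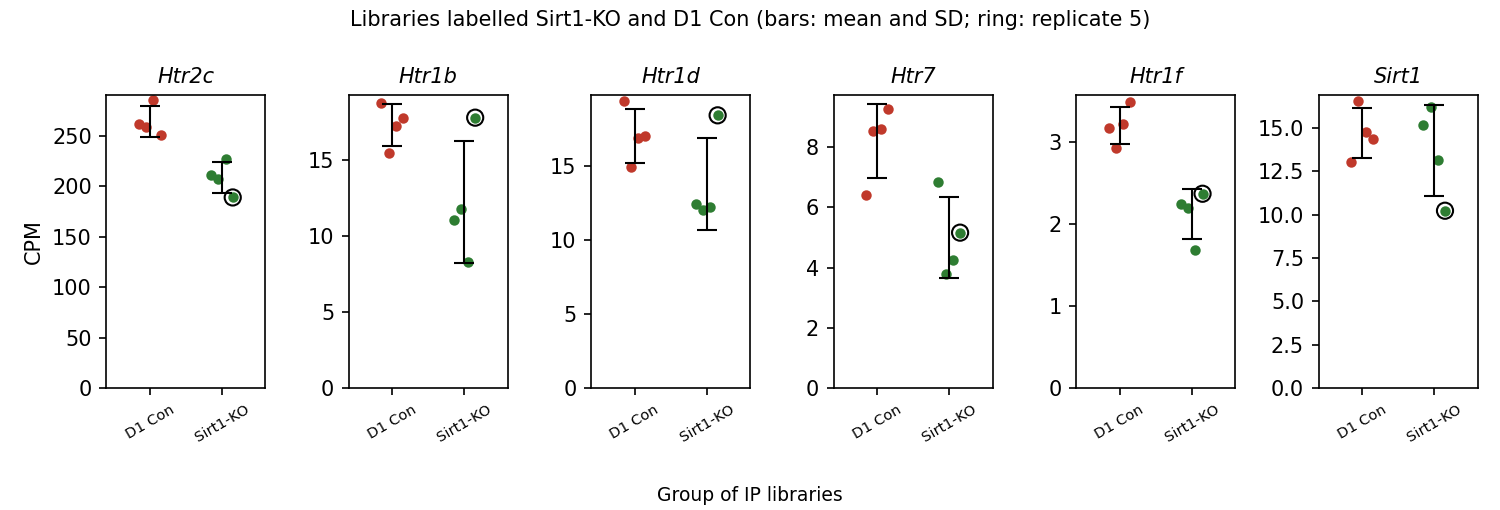
CPM of 5 receptor genes and of *Sirt1* in the 4 D1 Con libraries (red) and the 4 libraries labelled Sirt1-KO (green), with mean and SD as bars and a ring around Sirt1-KO replicate 5. *Htr2c* and *Htr1f* do not overlap between the groups, and replicate 5 lies apart for *Htr1b* and *Htr1d*.

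The signalling partners of the receptors were read from lists. Between D1- and D2-IPs, 2 of 5 Gi/o protein genes were higher in D1-IPs (*Gnai1*, log2 0.43, and *Gnaz*, 0.23) and 1 lower (*Gnao1*, -0.16). Of 7 Gq and phospholipase C beta genes, 2 were higher (*Gna14*, 3.14, and *Plcb4*, 0.29) and 2 lower (*Plcb1*, -0.18, and *Plcb3*, -0.32). Of 5 Gs and adenylyl cyclase genes, *Gnas* was higher (0.22), and *Gnal* (-0.22) and *Adcy5* (-0.21), the striatal G protein and its cyclase, were lower. These medians, 0.04, 0.05 and -0.03, sit beside -0.02 over all genes and 40.8% called.

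*Adar* and *Adarb1*, which encode enzymes that edit the *Htr2c* transcript, and the related *Adarb2* were not called between D1- and D2-IPs (log2 0.01, 0.02 and -0.14). Editing itself cannot be read from counts per gene. Of 10 genes for serotonin synthesis, transport and breakdown, 7 were tested and 3 were higher in D2-IPs: *Ddc*, the decarboxylase shared with dopamine synthesis (log2, D1 minus D2, -0.52), the vesicular transporter *Slc18a2* (-0.94) and the low-affinity transporter *Slc22a3* (-0.34). The serotonin transporter *Slc6a4* and *Tph1* failed the filter, and *Tph2*, the brain's synthetic enzyme, had a median of 0.267 CPM in D1-IPs and 0.157 in D2-IPs. No gene of the partner and cell marker lists was called by edgeR in a stress comparison within the IPs.

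The genes most alike each receptor over the 12 group means of IPs and inputs are given as a description, since these groups differ mainly between IP and input. For *Htr2c* they were *Ctcf* and *Slc35f1* (Pearson's r = 0.996 and 0.995 of mean log2 CPM), for *Htr1d* *Erlin1* and *Trim41* (0.992 and 0.991), for *Htr4* *Ubfd1* and *Fem1b* (0.990 and 0.988) and for *Htr1a* *Ptprt* and *Acaca* (0.989 and 0.969). *Htr3a* was nearest to *Arpc5* and *Eif4g2* (0.987 and 0.984), *Htr6* to *Ido1* and *Drc3* (0.982 and 0.982), *Htr1f* to *Cort* and *1700123O20Rik* (0.9759 and 0.9751), *Htr1b* to *Scube3* and *Maip1* (0.947 and 0.945) and *Htr7* to *Nr1d2* and *Inpp5f* (0.938 and 0.934). *Htr2a* had the lowest values, with *Cttnbp2* and *Zc3h13* (0.892 and 0.889).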

How the data were processed

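Libraries were made by the authors from RiboTag immunoprecipitates and inputs of mouse NAc, with poly-A selection and a stranded kit, and reads were aligned to mm10 with STAR and counted per gene with HTSeq. HTSeq is not listed for the Sirt1-KO libraries, and the annotation is not given in the sources used here. The deposited values are raw read counts per gene, in 1 table of IPs and inputs and 1 of Sirt1-KO and D1 Con. The 5 entries that name no gene held 18.0 to 28.3% of reads in IPs and 35.9 to 40.0% in inputs and were left out. A further 5 symbols listed again in the Sirt1-KO table, with identical values, were taken once, and 2 columns of no labelled sample were not used. The D1 Con libraries had identical counts in both tables.

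Counts were tested with edgeR 4.0.16 (R 4.3.3), by the quasi-likelihood test with TMM scaling. A filter on low counts came first (filterByExpr, at least 10 counts and 15 in total). Adjustment was by Benjamini-Hochberg over all genes tested, with a threshold of 0.05. Comparisons of D1- with D2-IPs and of stress groups within IPs were fitted on the 28 IP libraries, and those between inputs on the 18 inputs. IP with input used all 46 libraries, and Sirt1-KO with D1 Con used the 4 libraries of each. Groups came from the labels. Comparisons were D1- with D2-IP, IP with input, stress groups, inputs, and Sirt1-KO with D1 Con. IP and input numbered alike came from 1 homogenate, which pairs them by source, although their deviations from group means correlated in only 3 of 18 pairs above 0.1 (median r = 0.03). Alternatives were DESeq2 1.42.0, RLE scaling, other filters, other call rules, fewer libraries in the model, a replicate block and leaving out each library. The scripts were tested on simulated data. Exon lengths came from GENCODE M21, and promoter sequences from RefSeq. All 10 receptors are named in each comparison, partners and markers only from lists, and for each receptor the 2 genes with the highest Pearson's r. The receptors and lists were chosen with earlier results of these data known.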

Additional observations from a re-analysis of the deposited data

Results flagged for a closer look

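The IP-to-input difference differed between the D1-Cre and D2-Cre lines, by the interaction term of the edgeR fit, for 4 receptors: *Htr3a* by 1.13, *Htr1a* by 0.66, *Htr1d* by -0.56 and *Htr2c* by -0.23 (log2, D1 minus D2).

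A single library stood far from the rest of its group in 3 of the 70 groups of values examined, where chance alone gives about 1 in 20. *Htr1d* had 18.5 CPM in Sirt1-KO replicate 5, against 12.0 to 12.5 in the other 3. *Htr3a* had 2.44 CPM in D1 Res IP replicate 1, against 1.08 to 1.21 in the other 3, and *Htr6* had 10.1 CPM in D2 Res IP replicate 3, against 7.04 to 7.33 in the other 4.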

How the results depend on the processing

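No receptor changed direction past a threshold under any alternative. Over single receptors, 3166 of the values without 1 library kept their side of the threshold, 25 gained a call and 29 lost one, and under the other alternatives 1187 kept it, 11 gained and 5 lost. Without 1 library, the receptors called numbered 7 to 8 for D1- against D2-IPs, 2 to 4 within Con, 2 to 4 within Res, 4 to 5 within Sus, 6 to 8 for IP against input in the D1 line, 8 to 9 in the D2 line, 4 to 6 for the difference between lines and 0 to 4 for Sirt1-KO, with 0 throughout for stress and inputs. With a fold over 1.5 asked as well, 1 receptor was called for D1- against D2-IPs, 2 within Con, 0 within Res, 2 within Sus, 2 for IP against input in the D1 line, 7 in the D2 line and 0 for Sirt1-KO. At an unadjusted p under 0.05 there were 5 within Con, 5 within Res, 7 within Sus, 1 for D1 Sus against Res, 7 for the difference between lines, 2 for D1 against D2 inputs, 1 each for Sus and Res against Con inputs and 5 for Sirt1-KO. For Sirt1-KO, 2 were called over all genes with at least 1 count and 3 by DESeq2 (*Htr2c*, *Htr7* and *Htr1f*). The shares of all genes are not reported here for the fits without 1 library, the other filters, DESeq2 or the replicate block.

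With the replicate number as a block, 3 were called for Sirt1-KO (*Htr1b*, *Htr1d*, *Htr2c*), 4 within Con, 3 within Res and 6 within Sus. Number 5 occurs only in Sirt1-KO and number 2 only in D1 Con, so the blocked Sirt1-KO difference rests on numbers 1, 3 and 4. It therefore does not use Sirt1-KO replicate 5 and is no separate check on the fit without that library. Apart from IP and input of 1 homogenate, no label says that these numbers pair samples. Deviations of same-numbered Sirt1-KO and D1 Con libraries correlated from -0.01 to 0.08 over 3 pairs, and 6 of 13 D1- and D2-IP pairs exceeded 0.1. Between stress groups within the IPs, 7 of 27 pairs did. The same number gave the highest correlation in 0 of 3, 5 of 13 and 14 of 27 of these pairs. Whether libraries of 1 number share a batch was not tested. Without a block but over the pools with both libraries, an alternative added after seeing the data, *Htr3a* in the D1 line differed from input by -0.41 (adjusted p = 0.123 by edgeR). Depth limits *Htr3a* and *Htr1f* most, with as few as 9 and 35 counts in a library. The causes were not tested.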
